A study of Mus musculus with 12 samples.

Results

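The comparison described here set 4T1 cells primed by tumor-derived Gr1+CD11b+ cells (Tu-Gr1+CD11b+–primed, called Tu-primed) against 4T1 cells primed by spleen-derived Gr1+CD11b+ cells (Spl-Gr1+CD11b+–primed, called Spl-primed), across genes and beyond the interferon response. Its members are 8 of the 12 libraries of the series, 4 in each group, and the other 4 libraries are parental 4T1 cells. All 3 groups were grown from 4T1, a metastatic mammary tumor line of the BALB/c mouse strain. Gr1+ cells were taken with magnetic beads from the tumor or the spleen of BALB/c mice that carried 4T1 tumors, on day 21 according to the sample labels, and were placed above the 4T1 cells on a membrane with 0.4 μm pores for 48 hours, so that soluble factors could pass but the cells did not touch. Parental 4T1 cells were not exposed to Gr1+ cells. Spleen Gr1+ cells came from tumor-bearing mice too, so the comparison varies the tissue of origin and not the presence of a tumor. The paper reports Gr1hi and Gr1lo subsets of these cells in tumors. A different mix of Gr1+ cells cannot be told apart from the tissue itself here. The labels do not say whether the 4 libraries of a group came from separate cocultures or animals, and p-values measure the spread between these libraries. In bulk RNA, a change in all cells and a change in the share of cells that express a gene cannot be told apart.

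Gr1+CD11b+ cells are immature and mature myeloid cells, mostly of the neutrophil and monocyte lineages, that accumulate in tumors and in the spleen of tumor-bearing mice and can dampen T cell responses. Myeloid cells in tumors secrete cytokines of the IL-6 family, among them oncostatin M and IL-6. These bind receptor pairs that share the chain gp130, encoded by *Il6st*, and activate JAK kinases and the transcription factor STAT3, which raises genes of the acute-phase response, its own gene and the inhibitor *Socs3*. The same myeloid cells can release interferons, whose targets were set aside here as a list of 213 genes so that the remaining genes could be described.

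The libraries held 24566183 to 31637755 assigned reads, and 12550 genes passed the filter on low counts. The defining epithelial transcripts *Krt8*, *Krt18*, *Epcam* and *Cdh1* were present in every library, with a summed level of 1587 to 1926 CPM in Tu-primed, 2000 to 2139 CPM in Spl-primed and 2260 to 3380 CPM in parental libraries. Of 16 granulocyte markers, 11 had at most 3 counts in every library and 8 were at 0 throughout. Their summed level was 6.53 to 11.7 CPM in Tu-primed, 5.18 to 7.23 CPM in Spl-primed and 5.88 to 6.88 CPM in parental libraries. Of the 4 granulocyte markers that were tested, 2 were higher in Tu-primed cells (1 without Spl-primed libraries 1, 2 or 4 or Tu-primed libraries 1, 2 or 3), and their part in the results was not tested. Among 12 monocyte and macrophage markers 7 had at most 3 counts in every library, with sums of 4.2 to 4.82 CPM in Tu-primed, 2.51 to 4.08 CPM in Spl-primed and 1.84 to 2.66 CPM in parental libraries, and the pan-leukocyte marker *Ptprc* had between 1 and 10 counts. Lymphoid, erythroid and stromal markers summed to less than 1 CPM in every library. Spl-primed library 3 stood apart from the rest of its group, with a chi-square per degree of freedom of 31.8 to 39.6 to its group, compared with 3.5 to 7.63 among the other 3. Among parental libraries it was 6.01 to 64.6, and at least 17.8 for each pair that included library 3 or 4, and among Tu-primed libraries 4.38 to 17.7. Tu-primed library 4 had the weakest interferon response, with a mean log2 level of the interferon list 0.73 above the Spl-primed mean against 1.28 to 1.70 in the other Tu-primed libraries.

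In all, 957 genes differed between the primed groups, 585 higher and 372 lower in Tu-primed than in Spl-primed cells, which is 4.66% and 2.96% of the genes tested. A gene was called when its adjusted p in edgeR's quasi-likelihood test was under 0.05, fold changes are log2 values of Tu-primed over Spl-primed, and levels are in CPM, counts scaled to library size. Of the 174 interferon genes tested, 134 were higher and 1 was lower, *Plscr2* with a log2 fold change of -0.22. That left 451 genes higher and 371 lower outside the list, of which 446 and 363 are annotated as protein coding. The list was written by name, so that some of the 451 genes are also known to respond to interferons, *Ly6a* and *Nos2* among them. Others lie among called genes of the list on their chromosome. How many of the 451 respond to interferons was not tested. The higher genes moved further than the lower ones. Their median log2 fold change was 0.45 with quartiles of 0.32 and 0.75, and 76 of 451 changed by more than 1. The lower genes had a median of -0.33 with quartiles of -0.42 and -0.26, and 7 of 371 changed by more than 1. Among these 7, 1 gene had overlapping groups and a fold that rested mainly on Spl-primed library 3. The median over all genes tested was -0.01. The 4 libraries of each group did not overlap for 434 of the 451 genes that were higher and for 351 of the 371 that were lower, where over all genes 8.52% lay apart with Tu-primed above and 8.53% with Tu-primed below. The calls come from the same libraries, so that little overlap largely follows from the selection and is no separate support. Leaving out some of the libraries lowered these counts: the higher count was 296 without Tu-primed library 1 and 287 without Tu-primed library 3, and the lower count was 118 without Tu-primed library 3, 136 without Tu-primed library 2, 161 without Tu-primed library 1, 207 without Spl-primed library 2 and 239 without Spl-primed library 1. Without both Tu-primed library 4 and Spl-primed library 3, a choice made after seeing the data, 520 were higher and 491 lower.

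On CPM scaled by TMM, the parental libraries showed on which side of the untreated level these genes lay. The TMM factors were 0.88 to 0.95 in parental and 1.01 to 1.05 in primed libraries, and the side can depend on this scaling. By TPM, which also corrects for transcript length, the side can differ. *Spry1* was at 11.4 TPM in Tu-primed and 10.6 TPM in parental cells, against 18.4 and 23.6 CPM. Over all genes tested, 31.2% were higher and 28% lower in Tu-primed than in parental cells, and 25.7% were higher and 22.5% lower in Spl-primed than in parental cells. Both comparisons use the same 4 parental libraries, and each also shares 4 libraries with the comparison of the primed groups. Of the 451 genes higher in Tu-primed than in Spl-primed cells, 376 were above the parental level in Tu-primed cells and 160 of these were above it in Spl-primed cells as well. In 204 of the 451, Tu-primed cells were above the parental level and Spl-primed cells were not called different from it. Another 58 were not called in Tu-primed cells but lay below the parental level in Spl-primed cells, and 12 were called above in Tu-primed and below in Spl-primed cells. Of the 371 lower genes, 288 were below the parental level in Tu-primed cells, 138 of them also in Spl-primed cells. In 148 of the 371, Tu-primed cells were below the parental level and Spl-primed cells were not called different from it. The difference between the primed groups is the test by which the 371 genes were picked. For 47 of the 371, Spl-primed cells were above the parental level while Tu-primed cells were not called different from it.

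The gene with the smallest p outside the interferon list was *Osmr* (ENSMUSG00000022146, chromosome 15 from 6813577 to 6874969 of GRCm38), the chain that pairs with gp130 to form the oncostatin M receptor. *Osmr* was at 73.1, 71.3, 83.8 and 50.6 CPM in Tu-primed libraries 1 to 4 and 16.6, 18, 13.8 and 19.3 CPM in Spl-primed libraries 1 to 4, with 12.2 ± 0.419 CPM in parental cells (SD, n = 4). The groups did not overlap, as the rule for leading genes required, and the lowest Tu-primed value was that of library 4. Its log2 fold change, with its standard error (SE), was 2.04 (SE 0.13, adjusted p = 2.27e-06), and against parental cells it was 2.51 (adjusted p = 3.96e-08) in Tu-primed and 0.47 (adjusted p = 0.013) in Spl-primed cells. *Stat3* (ENSMUSG00000004040, chromosome 11 from 100885098 to 100939540), the transcription factor below the receptor, stood at 168, 163, 174 and 128 CPM in Tu-primed libraries 1 to 4 and 72.2, 74.4, 68.1 and 77.3 CPM in Spl-primed libraries 1 to 4. Its log2 fold change was 1.12 (SE 0.09, adjusted p = 9.7e-06). *Socs3*, which is induced by STAT3 and shuts off JAK signalling at gp130, was at 46, 51.2, 54.9 and 38 CPM in Tu-primed libraries 1 to 4 and 20.2, 22.7, 21 and 21.8 CPM in Spl-primed libraries 1 to 4. *Socs3* differed by 1.15 (SE 0.10, adjusted p = 1.14e-05) on the log2 scale, and its Spl-primed level was near the parental 20.2 ± 1.37 CPM. The kinase gene *Pim1*, another STAT3 target, was higher by 0.66 (SE 0.09, adjusted p = 0.000289).

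These were the 4 genes called among 21 tested members of the IL-6 family list, none of which was lower, and the list's median was 0.08, where 4.66% of all genes tested were higher and the median was -0.01. The other receptor chains did not pass the test: *Il6st*, which encodes gp130, was at 244 ± 15.1 CPM against 243 ± 35.9 CPM (log2 fold change 0.01, adjusted p = 0.974) and *Il6ra*, the IL-6 receptor chain, at 42.6 ± 2.55 CPM against 42.3 ± 3.63 CPM (log2 fold change 0.01, adjusted p = 0.974). Per transcript length, *Il6st* was listed at 60.2 ± 6.59 TPM and *Osmr* at 23 ± 4.08 TPM in Tu-primed cells, against 60.8 ± 19.3 and 5.56 ± 1.13 TPM in Spl-primed cells. Transcripts of the ligands were near the detection limit in the tumor cells, with 0 to 2 counts of *Osm* and 0 to 9 counts of *Il6* per library, and neither gene was tested. In the IL-6 family list 2 genes were lower at an unadjusted p under 0.05 in edgeR's test and 1 was called lower by DESeq2, without Tu-primed library 4 or without parental library 4.

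Promoter windows were searched for 2 motifs, TTCNNNGAA, the form bound by STAT proteins, and TGANTCA, a looser form that includes the AP-1 sites TGAGTCA and TGACTCA. The TGATTCA found in the *Osmr* and *Selp* windows is neither of these AP-1 sites. The 2 motifs searched read the same on either strand and do not overlap each other in the windows printed. Of the 40 genes that lead the comparison by p or by fold, 28 had a window of 250 bases before to 50 bases after the annotated start (RefSeq, GRCm38.p6), 4 of them with TTCNNNGAA and 4 with TGANTCA. TTCNNNGAA was found in the higher genes *Socs3* and *Steap4* and in the lower genes *Gsta1* and *Ripply1*. TGANTCA was found in the higher genes *Osmr* and *Selp* and in the lower genes *Gm3448* and *Ripply1*. The 4 windows printed are of higher genes only. These counts are of genes, while the shares that follow are of windows. TTCNNNGAA occurs in 8.3% of all 32851 windows and TGANTCA in 7.81%, and among the 12184 windows of genes tested here the shares are 6.97% and 5.38%. Outside the interferon list, TTCNNNGAA was found in 9.82% of 448 windows of higher genes and 5.57% of 359 windows of lower genes, and TGANTCA in 8.48% and 7.8%. A match of letters is not a binding site, and no factor was measured. The 4 windows printed here belong to the leading genes with the smallest p whose window holds a motif, and they are shown so that the start regions of *Osmr*, *Steap4*, *Selp* and *Socs3* can be read beside their values. They come from the reference genome and not from 4T1 DNA, are given 5′ to 3′ on the strand of the gene from 250 bases before to 20 bases after the start, and carry the motif in capitals. The *Osmr* window (chr15:6874294-6874563, minus strand) has TGATTCA from base 4 after the start, and the *Steap4* window (chr5:7960222-7960491, plus strand) has TTCCCGGAA beginning 116 bases before it. The *Selp* window (chr1:164115014-164115283, plus strand) has TGATTCA beginning 139 bases before the start, and the *Socs3* window (chr11:117969347-117969616, minus strand) has TTCTTAGAA beginning 154 bases before it.
Osmr: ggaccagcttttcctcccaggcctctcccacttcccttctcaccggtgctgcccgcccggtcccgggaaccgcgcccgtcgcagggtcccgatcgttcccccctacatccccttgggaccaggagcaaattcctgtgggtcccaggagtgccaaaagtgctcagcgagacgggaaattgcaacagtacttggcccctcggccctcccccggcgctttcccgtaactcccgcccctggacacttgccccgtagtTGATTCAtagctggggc
Steap4: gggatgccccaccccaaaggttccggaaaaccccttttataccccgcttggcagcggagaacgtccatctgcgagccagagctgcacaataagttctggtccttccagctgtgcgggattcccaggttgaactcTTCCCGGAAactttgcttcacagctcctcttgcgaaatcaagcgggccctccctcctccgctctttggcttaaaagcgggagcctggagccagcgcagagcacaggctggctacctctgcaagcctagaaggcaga
Selp: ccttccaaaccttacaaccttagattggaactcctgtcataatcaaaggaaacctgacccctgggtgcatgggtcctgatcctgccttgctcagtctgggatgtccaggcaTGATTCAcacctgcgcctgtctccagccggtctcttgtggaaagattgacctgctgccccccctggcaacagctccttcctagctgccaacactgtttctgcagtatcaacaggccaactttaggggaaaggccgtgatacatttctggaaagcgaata
Socs3: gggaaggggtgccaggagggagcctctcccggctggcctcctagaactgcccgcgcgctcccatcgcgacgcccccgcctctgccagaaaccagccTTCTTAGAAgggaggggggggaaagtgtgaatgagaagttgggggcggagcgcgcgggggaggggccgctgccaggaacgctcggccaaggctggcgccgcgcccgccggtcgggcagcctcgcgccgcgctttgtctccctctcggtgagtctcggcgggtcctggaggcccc

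**Figure D1:**
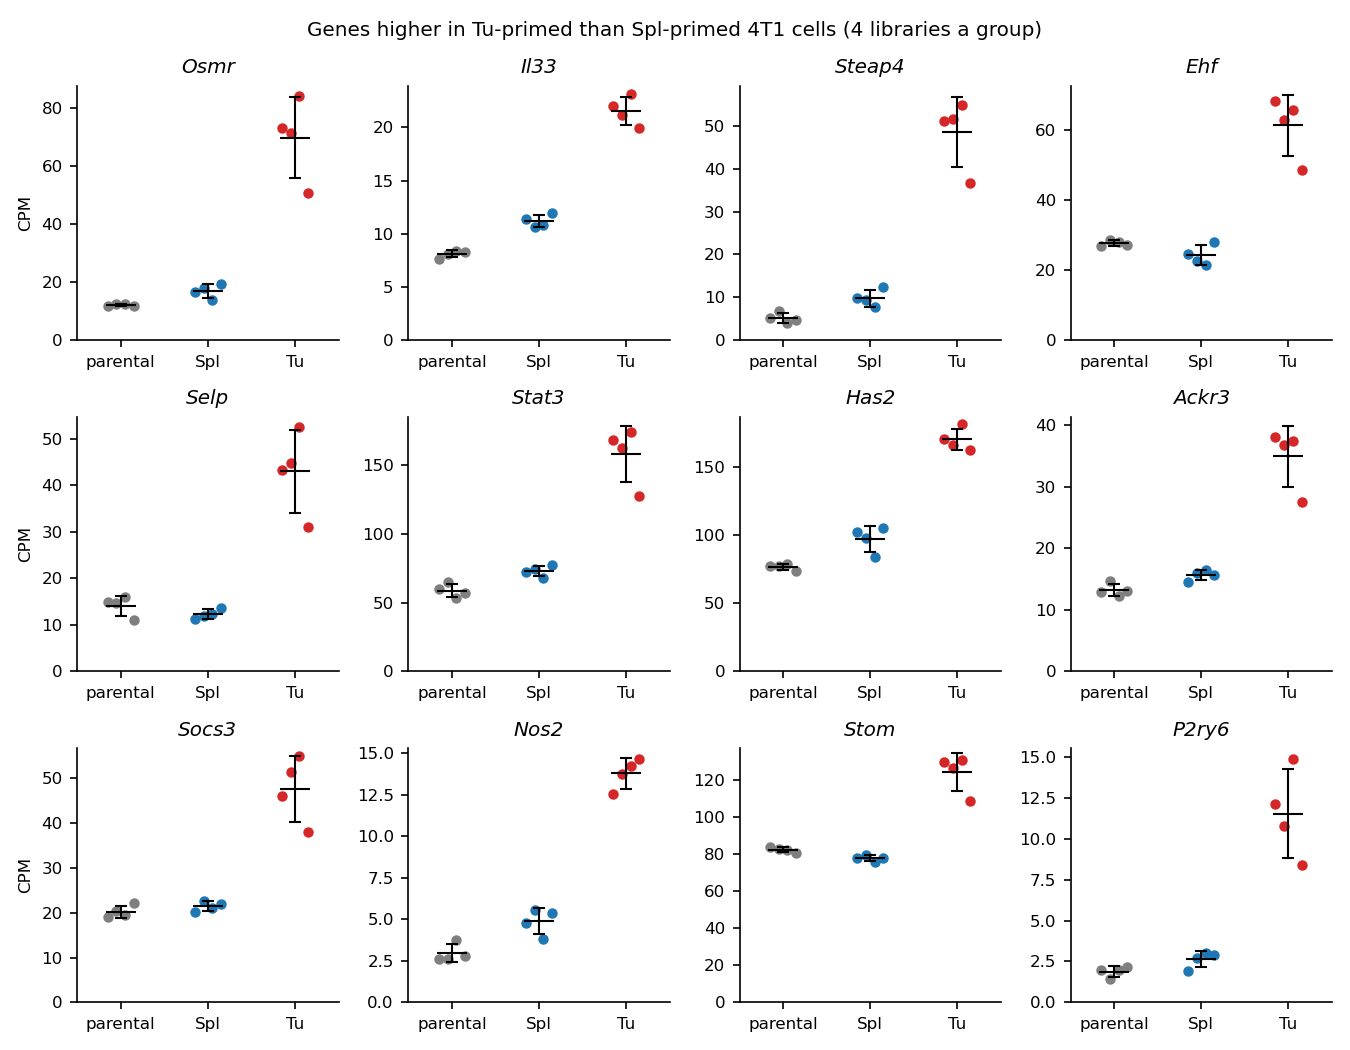
CPM per library for the 12 genes outside the interferon list with the smallest p among those higher in Tu-primed cells and without overlap between the primed groups, with parental, Spl-primed (Spl) and Tu-primed (Tu) libraries on the horizontal axis. Points are libraries, bars are the mean ± SD of 4 libraries, and Tu-primed library 4 is the lowest of its group in 11 of the 12 panels, *Nos2* being the exception.

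Secreted proteins of the acute-phase response were mostly higher where they could be tested. Of 33 members of that list, 8 were tested, of which 7 were higher and none lower, with a median of 0.92 on the log2 scale. Over all genes tested 4.66% were higher and 2.96% lower. The filter on low counts keeps a gene expressed in 1 group of 4 libraries. Scarce members of this and other lists could therefore enter through the group where they are high. *Lcn2*, which encodes the iron-siderophore binding protein lipocalin 2, averaged 995 ± 118 CPM in Tu-primed, 467 ± 38.1 CPM in Spl-primed and 608 ± 114 CPM in parental cells, a log2 fold change of 1.09 (SE 0.12, adjusted p = 6.79e-05) between the primed groups. The values were 1010.5, 1075, 1069 and 824 CPM in Tu-primed libraries 1 to 4 and 429, 457, 462 and 519.6 CPM in Spl-primed libraries 1 to 4. In Spl-primed cells *Lcn2* lay below the parental level (log2 fold change -0.38, adjusted p = 0.0162), and in Tu-primed cells above it (log2 fold change 0.71, adjusted p = 0.000171). *Saa3*, an acute-phase serum amyloid, was at 3.83, 3.3, 3.81 and 2.19 CPM in Tu-primed libraries 1 to 4 and 0.565, 0.654, 0.872 and 0.522 CPM in Spl-primed libraries 1 to 4, a log2 fold change of 2.33 (SE 0.23, adjusted p = 3.72e-05). *Slpi*, an inhibitor of neutrophil proteases, was higher by 0.75 (SE 0.09, adjusted p = 0.000179), and the chitinase-like protein gene *Chil1* by 1.22 (SE 0.15, adjusted p = 0.000132). *Cp*, which encodes the copper-carrying ferroxidase ceruloplasmin, was at 654 ± 77.4 CPM in Spl-primed, 654 ± 12.1 CPM in parental and 969 ± 86.9 CPM in Tu-primed cells (log2 fold change 0.57, adjusted p = 0.0006). The acute-phase count was 6 or 7 whichever library was left out.

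Genes of complement encode the serum cascade that tags and lyses cells. Of 25 in the annotation 13 were tested, with 9 higher, none lower and a median of 0.74. Over all genes tested 4.66% were higher and 2.96% lower. The proteases that start the classical pathway, *C1ra* and *C1s1*, were at 6.46 ± 1.39 CPM against 2.04 ± 0.416 CPM and 7.83 ± 1.41 CPM against 2.4 ± 0.356 CPM, with log2 fold changes of 1.66 (adjusted p = 0.000154) and 1.71 (adjusted p = 5.77e-05). For *C1s1* the parental mean was 0.807 ± 0.266 CPM, so that both primed groups were above it, by 3.27 and 1.56 on the log2 scale. *Cfb*, factor B of the alternative pathway, was at 2.41, 1.71, 1.96 and 1.18 CPM in Tu-primed libraries 1 to 4 and 0.188, 0.109, 0.254 and 0.313 CPM in Spl-primed libraries 1 to 4. Its log2 fold change of 3.04 (SE 0.38, adjusted p = 0.000179) was the largest of the list, and was 1.96 by DESeq2 with length offsets. Its Spl-primed mean of 0.216 ± 0.0878 CPM was close to the parental 0.219 ± 0.12 CPM. *Clu*, clusterin, a chaperone that restrains the terminal complex, differed less, from 126 ± 9.54 CPM to 210.4 ± 15.9 CPM (log2 fold change 0.74, SE 0.07, adjusted p = 1.44e-05). The count of higher complement genes was between 7 and 9 without any 1 library.

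**Figure D2:**
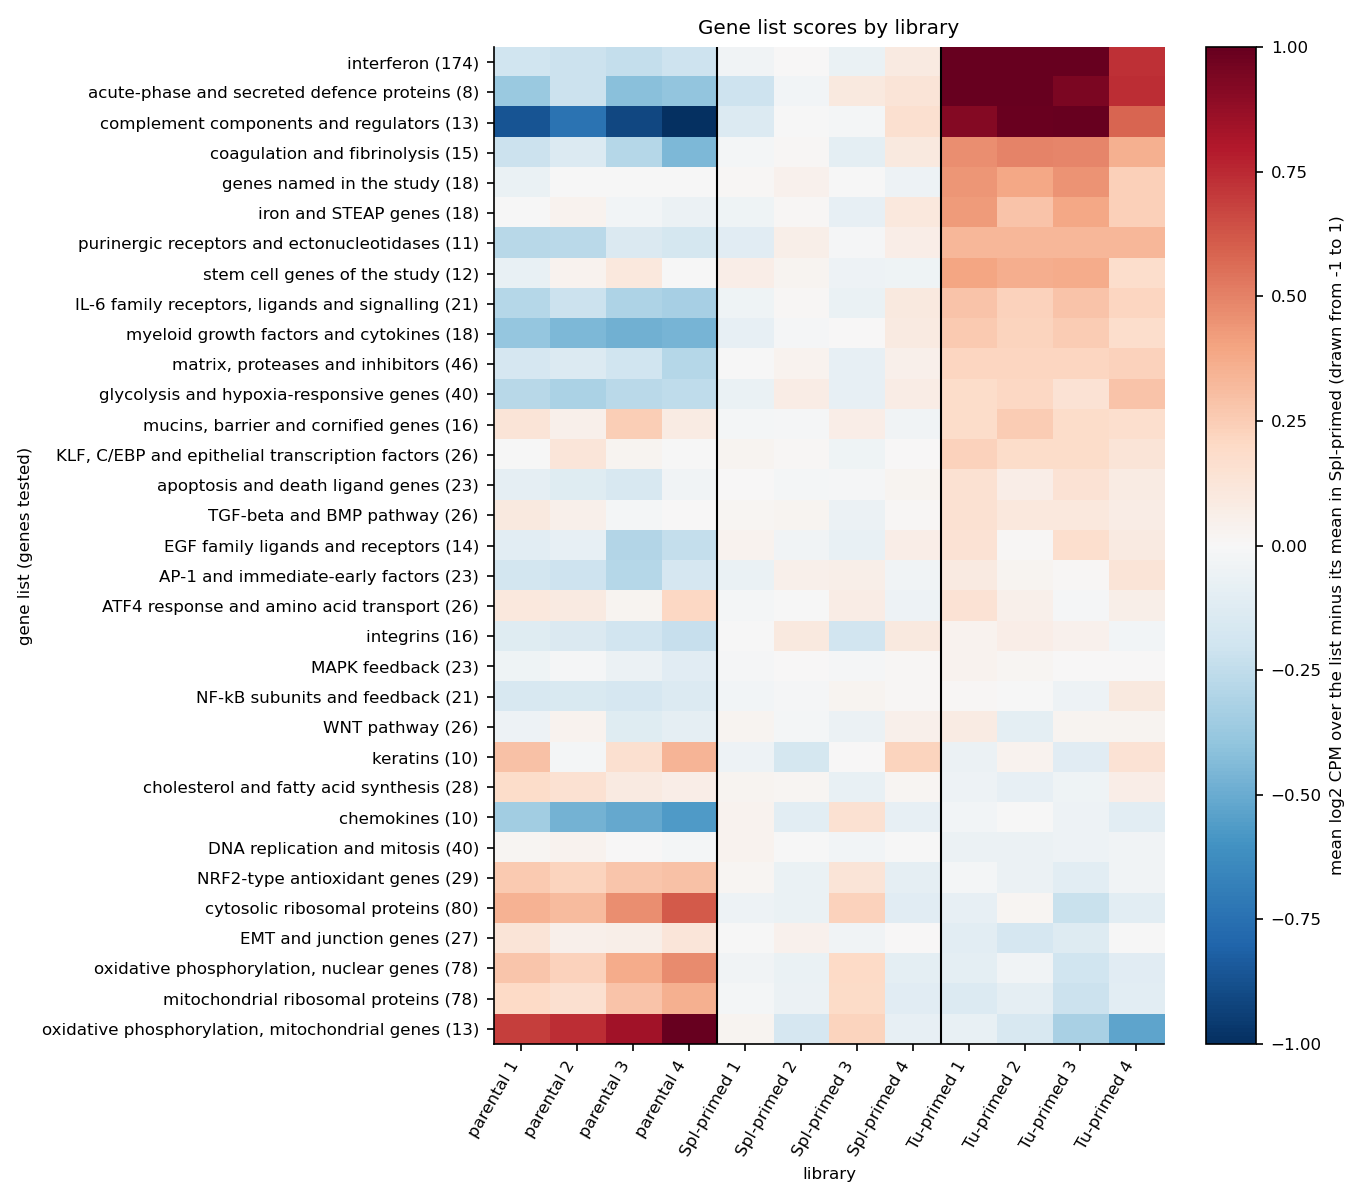
Score of each gene list (rows, number of genes tested in parentheses) in each of the 12 libraries (columns), given as the mean log2 CPM over the list minus its mean in the Spl-primed libraries, with colours ending at -1 and 1. The acute-phase list lies between 0.74 and 1.09 and the complement list between 0.58 and 1.07 in the Tu-primed libraries, and Tu-primed library 4 is the lowest of its group for both.

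On chromosome 1, the neighbouring genes *Sele*, *Selp* and *F5*, between 164048234 and 164220277 of GRCm38, were all higher in Tu-primed cells. Selectins are adhesion receptors that bind leukocytes to vessel walls and platelets, and *F5* encodes coagulation factor V. *Selp*, P-selectin, was at 43.3, 44.9, 52.6 and 31.1 CPM in Tu-primed libraries 1 to 4 and 11.2, 11.9, 12.4 and 13.7 CPM in Spl-primed libraries 1 to 4. The Spl-primed values of *Selp* were close to the parental 14.1 ± 2.15 CPM, and its log2 fold change between the primed groups was 1.80 (SE 0.14, adjusted p = 9.7e-06). *F5* was at 19.8, 20.7, 30.9 and 9.3 CPM in Tu-primed libraries 1 to 4 and 2.57, 2.51, 1.89 and 4.42 CPM in Spl-primed libraries 1 to 4. Its Tu-primed libraries spread from 9.3 in library 4 to 30.9 in library 3, all above the highest Spl-primed value, with a log2 fold change of 2.82 (SE 0.31, adjusted p = 7.63e-05). *Sele*, E-selectin, differed by 1.23 (SE 0.11, adjusted p = 1.71e-05). The coagulation list as a whole had 4 of 15 genes higher and none lower (median 0.12; 4.66% and 2.96% over all genes tested), the others being *Pros1*, the anticoagulant protein S (log2 fold change 1.28, SE 0.17, adjusted p = 0.000293), and the protease inhibitor *Serpine2* (log2 fold change 0.44, SE 0.07, adjusted p = 0.000872). Tissue factor, the plasminogen activators and their receptor were not among the genes called.

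Other groups of neighbours held several called genes, and all were picked out after their values had been seen, by asking for at least 3 called genes in 1 direction among 5 consecutive tested genes. This found 29 runs of higher genes, of which 8 held no called gene of the interferon list, and 6 runs of lower genes. No test of chance was made for them. On chromosome 6, *C1rl*, *C1ra*, *C1s1* and *Lpcat3* were higher, *Lpcat3* by 0.19 (SE 0.05, adjusted p = 0.0448), a call lost in 12 of 22 alternatives. On chromosome 7, *P2ry6* and *P2ry2*, receptors for extracellular nucleotides, were flanked by *Arhgef17* (log2 fold change 0.55, SE 0.09, adjusted p = 0.00125) and *Fchsd2* (log2 fold change 0.38, SE 0.09, adjusted p = 0.0144), whose call was lost in 2 alternatives. On chromosome 5, the metalloreductase genes *Steap2* (log2 fold change 0.55, SE 0.08, adjusted p = 0.0006) and *Steap1* (log2 fold change 0.42, SE 0.08, adjusted p = 0.00309) stand next to each other. *Steap4* follows beyond 2 tested features with no call and begins 2296 kb from the first base of this run, where *Steap1* begins at 71.5 kb. The rule counts tested genes and takes no account of distance. Counts of neighbouring paralogs such as *Steap1* and *Steap2* depend on how the authors' quantification split reads that fit both.

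**Figure D3:**
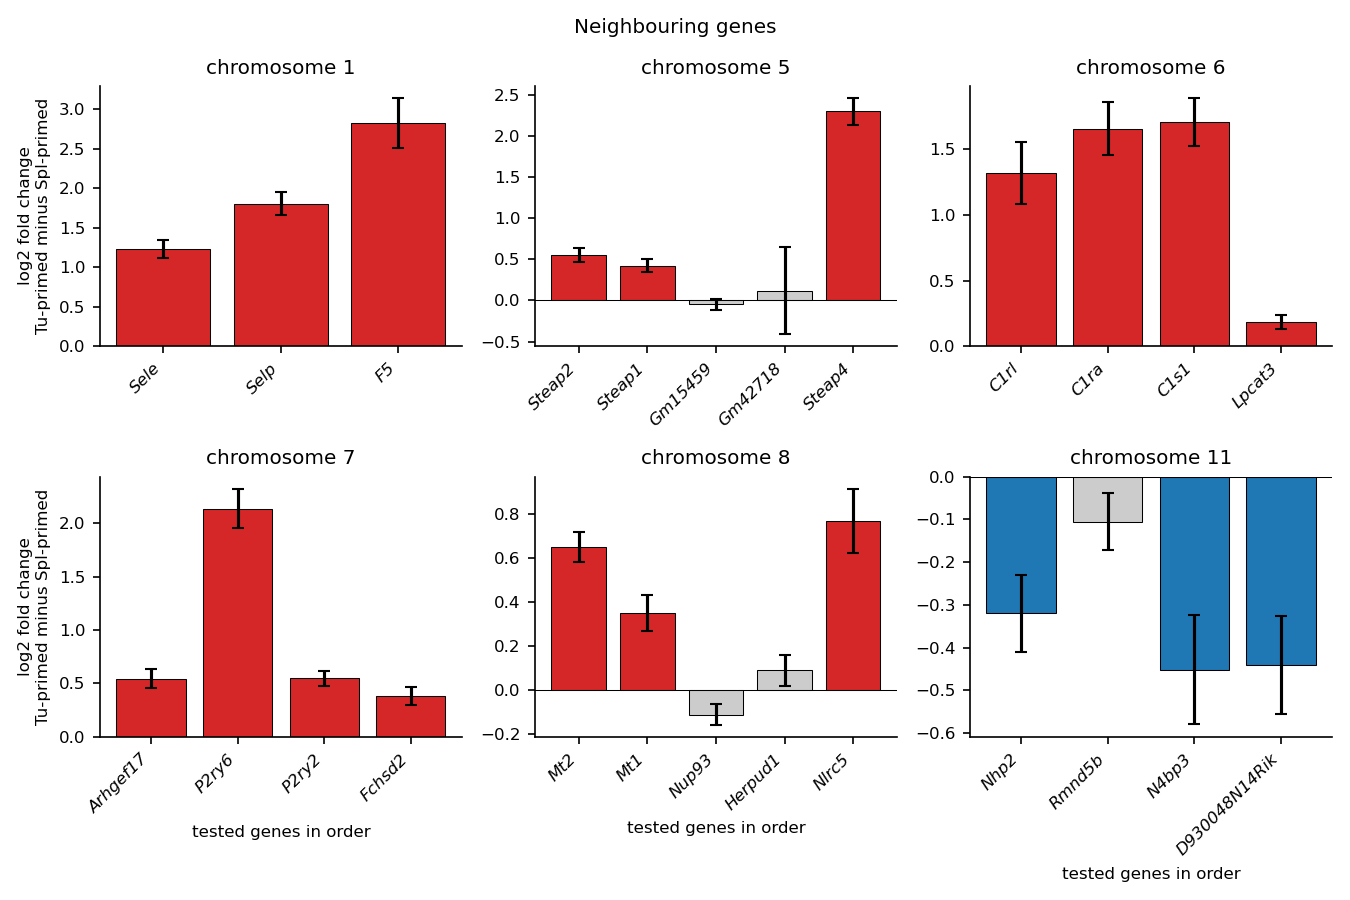
Log2 fold change of Tu-primed minus Spl-primed (bars, with standard errors) for neighbouring tested genes in 6 chromosomal neighbourhoods, red where called higher, blue where called lower and grey where not called. The 3 genes drawn for the selectin and *F5* region on chromosome 1 are called higher, with *F5* at 2.82.

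Among cytokine genes, *Il33* led. *Il33*, an alarmin stored in the nucleus of barrier cells, was at 22, 21.2, 23.1 and 19.96 CPM in Tu-primed libraries 1 to 4 and 11.4, 10.6, 10.8 and 11.9 CPM in Spl-primed libraries 1 to 4. Within each group the values lay close together and the groups were far apart (log2 fold change 0.94, SE 0.07, adjusted p = 3.63e-06), and the parental level was 8.13 ± 0.342 CPM. Of 18 tested myeloid growth factors and cytokines, 4 were higher and none lower (median 0.19). Over all genes tested 4.66% were higher and 2.96% lower. *Csf3*, which encodes the neutrophil growth factor G-CSF, was at 240.3 ± 12.1 CPM against 165 ± 12.1 CPM with 129 ± 12.4 CPM in parental cells, a log2 fold change of 0.54 (SE 0.07, adjusted p = 0.000348) between the primed groups. *Vegfa*, the angiogenic growth factor, was higher by 0.41 (SE 0.08, adjusted p = 0.00694), a call lost in 1 alternative, and the death ligand *Tnfsf10* by 1.5 (SE 0.35, adjusted p = 0.0159), a call lost in 3. Chemokines outside the interferon list gave no higher gene among 10 tested and 1 lower, *Cx3cl1*, the membrane-bound fractalkine (log2 fold change -0.34, SE 0.07, adjusted p = 0.00732), with 2 without Spl-primed library 4, Tu-primed library 4 or parental library 4. No chemokine was higher at an unadjusted p under 0.05 in edgeR's test or called higher by DESeq2 or limma-voom, and 1, Cxcl1, was called higher without Spl-primed library 3. Against parental cells, 5 of the 10 chemokines were higher in Tu-primed and 6 in Spl-primed cells.

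*P2ry6*, the receptor for extracellular UDP, was at 12.1, 10.8, 14.9 and 8.37 CPM in Tu-primed libraries 1 to 4 and 1.95, 2.69, 3.01 and 2.89 CPM in Spl-primed libraries 1 to 4, a log2 fold change of 2.13 (SE 0.18, adjusted p = 1.34e-05). Its parental level was 1.87 ± 0.327 CPM. *P2ry2*, the receptor for ATP and UTP, was higher by 0.55 (SE 0.07, adjusted p = 0.000231), and in Spl-primed cells it lay below the parental level (log2 fold change -0.37, adjusted p = 0.000831). With *Nt5e*, the ectonucleotidase CD73 that makes adenosine (log2 fold change 0.48, SE 0.08, adjusted p = 0.00119), they made up the 3 higher genes among 11 tested purinergic genes, with none lower (4.66% and 2.96% over all genes tested). *Nos2*, the inducible nitric oxide synthase, was at 12.5, 13.7, 14.2 and 14.6 CPM in Tu-primed libraries 1 to 4 and 4.77, 5.56, 3.81 and 5.39 CPM in Spl-primed libraries 1 to 4, a log2 fold change of 1.5 (SE 0.13, adjusted p = 1.14e-05). *Ackr3*, a scavenging receptor for the chemokine CXCL12, was at 38, 36.7, 37.4 and 27.5 CPM in Tu-primed libraries 1 to 4 and 14.5, 16, 16.4 and 15.6 CPM in Spl-primed libraries 1 to 4. *Ackr3* differed by 1.16 (SE 0.10, adjusted p = 1.14e-05), and library 4 was apart from the other Tu-primed libraries. *Stom*, a membrane scaffold protein, differed by 0.67 (SE 0.06, adjusted p = 1.34e-05) with 124 ± 10.3 CPM against 77.7 ± 1.5 CPM.

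The surface proteins SCA1 and MUC1 had some of the largest folds. *Ly6a*, which encodes SCA1, was at 12.5, 10.8, 9.72 and 3.12 CPM in Tu-primed libraries 1 to 4 and 1.32, 1.31, 1.31 and 1.25 CPM in Spl-primed libraries 1 to 4. Its Spl-primed values were nearly constant while the Tu-primed values ran from 3.12 in library 4 to 12.5 in library 1, and the log2 fold change was 2.80 (SE 0.34, adjusted p = 0.000154). *Muc1*, a transmembrane mucin, was at 7.06, 7.07, 8.77 and 3.4 CPM in Tu-primed libraries 1 to 4 and 0.439, 0.726, 0.872 and 0.835 CPM in Spl-primed libraries 1 to 4, a log2 fold change of 3.20 (SE 0.28, adjusted p = 1.44e-05). Of 16 tested mucin, barrier and cornified genes 1 other was called, the kallikrein *Klk10* with a log2 fold change of -0.54. Over all genes tested 4.66% were higher and 2.96% lower. The lower count of this list was 0 without Spl-primed libraries 1, 2 or 3, Tu-primed libraries 1, 2 or 3 or parental library 3. It was 2 without Tu-primed library 4 or parental library 4. *Ly6a* belongs to a family of neighbouring, similar genes, so that its counts are uncertain where reads fit more than 1 of them.

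Several transcription factors of epithelial cells were higher. *Ehf*, an ETS factor of epithelia, was at 68.1, 62.8, 65.6 and 48.4 CPM in Tu-primed libraries 1 to 4 and 24.7, 22.7, 21.5 and 28.1 CPM in Spl-primed libraries 1 to 4. Its log2 fold change was 1.34 (SE 0.10, adjusted p = 5.92e-06), with 27.7 ± 0.761 CPM in parental cells. *Cebpd*, a C/EBP factor of the acute-phase response, was at 4.36 ± 1.2 CPM against 1.27 ± 0.241 CPM (log2 fold change 1.77, SE 0.22, adjusted p = 0.000173), and *Klf9* (log2 fold change 0.59, SE 0.09, adjusted p = 0.000805) and *Klf4* (log2 fold change 0.39, SE 0.06, adjusted p = 0.00144), zinc finger factors of differentiation, were higher as well. The list of KLF, C/EBP and epithelial factors had 7 of 26 genes higher and 1 lower (4.66% and 2.96% over all genes tested), with a median of 0.13. The higher count was 4 without Spl-primed library 1 or Tu-primed libraries 1, 2 or 3. The 1 lower gene was *Sox9*, a progenitor factor (log2 fold change -0.24, SE 0.06, adjusted p = 0.0186), a call lost in 5 of 22 alternatives, and the lower count was 0 without Spl-primed libraries 1 or 2 or Tu-primed libraries 1, 2 or 3 and 2 without parental library 4.

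Genes of a stem cell marker list went in both directions, with 5 of 12 higher and 2 lower (4.66% and 2.96% over all genes tested). *Ly6a*, *Has2*, *Itgb3*, *Klf4* and *Cd24a* were higher, and *Sox9* and the aldehyde dehydrogenase gene *Aldh3a1* (log2 fold change -0.34, SE 0.08, adjusted p = 0.0189) were lower. *Aldh1a1* was at 0.287 ± 0.0364 CPM against 0.459 ± 0.145 CPM (adjusted p = 0.269) and the drug efflux pump gene *Abcg2* at 8.05 ± 1.09 CPM against 6.42 ± 0.759 CPM (adjusted p = 0.115), neither of which passed the test. The study looked at most of the list in these libraries, and the surface markers *Itgb3* and *Cd24a* are ones it followed in other data, so that the count is not independent evidence of a direction. The lower count was 0 without Spl-primed library 1 or Tu-primed libraries 2 or 3 and 1 without Spl-primed libraries 2 or 3 or Tu-primed library 1, and the higher count was 4 or 5 without any 1 library. *Pou5f1* and *Nanog* had at most 6 and 4 counts in any library and *Sox2* had 0 in all 12, which allows up to 0.126 CPM.

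Epithelial junction and mesenchymal genes gave few calls between the primed groups. Of 27 tested, none was higher and 2 were lower (4.66% and 2.96% over all genes tested), with a median of -0.10. The 2 were *Perp*, a desmosomal protein (log2 fold change -0.35, SE 0.06, adjusted p = 0.00156), and the tight junction gene *Cldn9* (log2 fold change -0.73, SE 0.13, adjusted p = 0.00244), and 5 were lower without parental library 4. *Cdh1* (E-cadherin) was at 63.3 ± 4.38 CPM against 70.2 ± 4.7 CPM (adjusted p = 0.201), *Vim* (vimentin) at 1626 ± 74.2 CPM against 1973 ± 131 CPM (adjusted p = 0.0797), and the transcription factors *Snai1*, *Twist1* and *Zeb1* had log2 fold changes of 0.16, -0.13 and -0.02 with adjusted p-values of 0.437, 0.391 and 0.977. The primed libraries did not overlap for *Vim*, with Tu-primed below, and its call was gained in 3 of 22 alternatives. None of the 10 keratins tested was called in edgeR's quasi-likelihood test, where 4 had an unadjusted p under 0.05 with Tu-primed cells below. The lower count was 2 without Tu-primed library 4, 3 without parental library 4, 1 without parental library 2, 3 with the 8 primed libraries alone and 1 by DESeq2.

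Genes that build and cut extracellular matrix were mostly higher where they differed. Of 46 tested, 9 were higher and 1 was lower (median 0.13), where over all genes tested 4.66% and 2.96% were. *Has2*, the synthase of long hyaluronan chains, was at 170.3, 166, 181 and 163 CPM in Tu-primed libraries 1 to 4 and 102, 97.5, 84 and 105 CPM in Spl-primed libraries 1 to 4, a log2 fold change of 0.81 (SE 0.07, adjusted p = 1.14e-05). Its relative *Has3* was the 1 lower gene, at 2.91 ± 0.714 CPM against 4.52 ± 0.628 CPM (log2 fold change -0.63, SE 0.18, adjusted p = 0.0499), a call lost in 12 of 22 alternatives, with a lower count of 0 without Spl-primed libraries 1, 2 or 3, Tu-primed libraries 1, 2 or 3 or parental libraries 1 or 3, 2 without parental libraries 2 or 4 and 3 without Tu-primed library 4. *Mmp13*, a collagenase, was at 32 ± 2.94 CPM against 11.9 ± 1.36 CPM with 6.41 ± 2.54 CPM in parental cells, so that both primed groups were above the parental level, by 2.32 and 0.89 on the log2 scale, and differed from each other by 1.43 (SE 0.19, adjusted p = 0.000272). The aggrecan-cleaving protease *Adamts4* was higher by 0.71 (SE 0.08, adjusted p = 7.75e-05) and the matricellular gene *Ccn5* by 1.64 (SE 0.30, adjusted p = 0.00357). Among 16 integrins, 3 were higher, *Itgb3* with 0.73 (SE 0.11, adjusted p = 0.00104) at 81.1 ± 3.94 CPM against 49 ± 9.91 CPM, and 1 was lower, *Itgb7* (log2 fold change -0.29, SE 0.07, adjusted p = 0.0263), a call lost in 7 alternatives, being 0 without Spl-primed libraries 1, 2 or 3 or Tu-primed libraries 1, 2 or 3.

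The list of glycolysis and hypoxia-responsive genes gave calls in 1 direction. Of 40 tested genes on the joint list, 13 were higher and none lower (4.66% and 2.96% over all genes tested), with a median of 0.17. The count was 8 without Tu-primed library 1 or Spl-primed library 1. *Hif1a*, the oxygen-regulated subunit of HIF-1, was at 752 ± 114 CPM against 482 ± 43.8 CPM with 561 ± 15.1 CPM in parental cells (log2 fold change 0.64, SE 0.10, adjusted p = 0.000752). *Bnip3* (log2 fold change 0.49, SE 0.06, adjusted p = 0.000271) and *Bnip3l* (log2 fold change 0.39, SE 0.06, adjusted p = 0.000478), mitophagy receptors under HIF control, and *Ndrg1* (log2 fold change 0.55, SE 0.11, adjusted p = 0.00694) were higher, each of them also above the parental level in Spl-primed cells, by 0.79, 0.33 and 0.59. Of the glycolytic enzymes, *Hk2* (log2 fold change 0.38) and *Pfkp* (0.32) were higher, while *Gapdh* (-0.01), *Ldha* (-0.02), *Pkm* (-0.06) and *Gpi1* (-0.05) were among the 27 members not called.

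Iron and STEAP genes gave 7 higher genes among 18 tested and none lower (4.66% and 2.96% over all genes tested), with a median of 0.18. Of the 7, 1 is also on the granulocyte marker list. *Steap4*, a cell-surface reductase of iron and copper, was at 51, 51.5, 54.8 and 36.5 CPM in Tu-primed libraries 1 to 4 and 9.79, 9.34, 7.66 and 12.5 CPM in Spl-primed libraries 1 to 4. The parental level was 5.18 ± 1.22 CPM, below both primed groups (3.22 and 0.92 on the log2 scale), and *Steap4* differed between them by 2.30 (SE 0.16, adjusted p = 3.63e-06). Antioxidant genes usually placed under NRF2 went in both directions, with 5 higher and 5 lower of 29. The higher genes included the metallothioneins *Mt2* (log2 fold change 0.65, SE 0.07, adjusted p = 4.56e-05) and *Mt1* (log2 fold change 0.35, SE 0.08, adjusted p = 0.0166), the mitochondrial superoxide dismutase *Sod2* (log2 fold change 0.50, SE 0.07, adjusted p = 0.000304) and the purine oxidase *Xdh* (log2 fold change 0.93, SE 0.10, adjusted p = 4.56e-05), several of which are also known cytokine targets. The lower genes included the quinone reductase *Nqo1*, at 24.5, 24.3, 20.8 and 24.8 CPM in Tu-primed libraries 1 to 4 and 35.4, 32, 37.6 and 29.6 CPM in Spl-primed libraries 1 to 4 (log2 fold change -0.51, SE 0.08, adjusted p = 0.000755), and the glutathione transferase *Gsta4* (log2 fold change -0.60, SE 0.12, adjusted p = 0.00694). *Nqo1* was below the parental 46.8 ± 0.813 CPM in both primed groups. The lower count was 2 without Tu-primed libraries 1 or 3 and 3 without Spl-primed libraries 1 or 3 or Tu-primed library 2, and the higher count was 3 without Spl-primed libraries 1 or 2.

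Signalling feedback genes also went both ways, in short lists to be read beside the 4.66% higher and 2.96% lower over all genes tested. Of 21 NF-kB subunits and feedback genes, 5 were higher, among them *Bcl3* (log2 fold change 0.56, SE 0.07, adjusted p = 0.000271), an IκB-type coactivator, and *Tnip3* (log2 fold change 0.65, SE 0.11, adjusted p = 0.00233), an inhibitor of the pathway, and 4 were lower, *Nfkbie*, *Traf1*, *Nfkb2* and *Vcam1*, with log2 fold changes between -0.38 and -0.18. The lower count was 0 without Tu-primed libraries 1 or 3, 1 without Spl-primed library 3 or Tu-primed library 2 and 2 without Spl-primed libraries 1, 2 or 4 or parental library 3, and the higher count was 3 without Spl-primed libraries 1 or 2 or Tu-primed libraries 1 or 3. Among 23 AP-1 and immediate-early genes, *Fosl2* (log2 fold change 0.49, SE 0.06, adjusted p = 0.000271), *Ier3* (log2 fold change 0.42, SE 0.06, adjusted p = 0.000272) and *Fos* (log2 fold change 0.76, adjusted p = 0.0164, a call lost in 3 of 22 alternatives) were higher and *Fosb* and *Fosl1* were lower, a lower count that was 0 without Tu-primed libraries 2 or 3 and 1 without Spl-primed libraries 1, 2 or 3, Tu-primed library 1 or parental libraries 1 or 3. Of 23 MAPK feedback genes 3 were higher and *Spry1* was lower. *Dusp6* (log2 fold change 0.37, SE 0.06, adjusted p = 0.00144), a phosphatase of ERK, and *Errfi1* (log2 fold change 0.29, SE 0.05, adjusted p = 0.00146), an inhibitor of the EGF receptor, were among the higher ones, and of 14 EGF family genes 3 were higher and none lower, with 2 lower at an unadjusted p under 0.05 and 1 called lower without Tu-primed library 4. The ligands *Areg* (log2 fold change 0.61, SE 0.10, adjusted p = 0.00175) and *Tgfa* (log2 fold change 0.36, SE 0.07, adjusted p = 0.00392) were 2 of them. Of 23 apoptosis and death genes, 6 were higher, led by the inflammatory caspase *Casp12* (log2 fold change 0.85, SE 0.08, adjusted p = 3.44e-05), and 1 was lower, the BH3 protein gene *Bid* (log2 fold change -0.37, SE 0.06, adjusted p = 0.00097).

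In the TGF-beta and BMP list, 5 of 26 genes were higher and 2 lower, where over all genes tested 4.66% and 2.96% were. The higher ones included *Id1* (log2 fold change 0.69, SE 0.13, adjusted p = 0.00357), a target of BMP signalling, and *Ltbp2* (log2 fold change 0.49, SE 0.08, adjusted p = 0.00149), a matrix protein of the latent TGF-beta family. The higher count was 2 without Tu-primed library 2 and 3 without Spl-primed library 1 or Tu-primed libraries 1 or 3, and the lower count was 0 without Tu-primed libraries 1, 2 or 3 and 1 without Spl-primed libraries 1, 2, 3 or 4 or parental libraries 1 or 3. Amino acid stress genes had *Slc7a11*, the cystine transporter (log2 fold change 0.78, SE 0.15, adjusted p = 0.00436), and *Chac1* and *Trib3* among 4 higher, and *Cth* and *Phgdh* as the 2 lower, of 26. The lower count was 0 without Spl-primed libraries 1 or 3 or Tu-primed libraries 2 or 3, 1 without Spl-primed library 2, Tu-primed library 1 or parental libraries 1 or 3 and 4 without Spl-primed library 4. None of 26 WNT genes was called by edgeR, with 4 higher and 1 lower at an unadjusted p under 0.05. The higher count was 2 without Tu-primed library 4, 1 without parental library 4, 2 by DESeq2 and 3 by DESeq2 with length offsets. In other lists 2 of 40 replication and mitosis genes were lower (*Ccne1* and *Aurkb*; 0 without Spl-primed library 3 or Tu-primed libraries 1, 2 or 3 and 1 without Spl-primed libraries 1, 2 or 4 or parental libraries 1 or 3), and 1 of 28 cholesterol and fatty acid genes was lower, *Dhcr7* (log2 fold change -0.29, adjusted p = 0.00775, adjusted p = 0.0551 by DESeq2 with length offsets).

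The genes lower in Tu-primed cells had smaller folds. *Spry1* (ENSMUSG00000037211, chromosome 3 from 37639947 to 37644598), an inhibitor of receptor tyrosine kinase signalling, had the smallest p among them. *Spry1* was at 18.6, 18.2, 18 and 18.8 CPM in Tu-primed libraries 1 to 4 and 23.3, 24.1, 25.1 and 25.3 CPM in Spl-primed libraries 1 to 4. The log2 fold change was -0.41 (SE 0.05, adjusted p = 0.000154), and the Spl-primed level was near the parental 23.6 ± 0.461 CPM. By TPM, *Spry1* was at 11.4 in Tu-primed, 14.6 in Spl-primed and 10.6 in parental cells. *Nptx1* (ENSMUSG00000025582, chromosome 11 from 119538719 to 119547753), a secreted pentraxin known from synapses, was at 96.9, 96.7, 87.4 and 139 CPM in Tu-primed libraries 1 to 4 and 193, 205, 173 and 196 CPM in Spl-primed libraries 1 to 4. Library 4 was the highest Tu-primed library, still below the lowest Spl-primed one (log2 fold change -0.87, SE 0.12, adjusted p = 0.000329). Its receptor gene *Nptxr* was lower as well (log2 fold change -0.39, SE 0.06, adjusted p = 0.000478).

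*Nfatc2*, a transcription factor activated by calcium and calcineurin, was at 3.19, 2.64, 3.08 and 3.64 CPM in Tu-primed libraries 1 to 4 and 6.25, 6.1, 5.34 and 5.64 CPM in Spl-primed libraries 1 to 4. Its log2 fold change was -0.89 (SE 0.12, adjusted p = 0.000351), while the Spl-primed level did not pass the test against parental cells (log2 fold change -0.16, adjusted p = 0.258). *Sh2b3*, the adaptor LNK that dampens cytokine receptor signalling, was at 57.2, 51.1, 51.8 and 62.3 CPM in Tu-primed libraries 1 to 4 and 76.7, 75.1, 74.1 and 75.8 CPM in Spl-primed libraries 1 to 4 with 55.1 ± 2.26 CPM in parental cells. Here it was the Spl-primed group that lay above the parental level, by 0.45 (adjusted p = 6.25e-05), while Tu-primed cells differed from it by 0.01 (adjusted p = 0.866), and the log2 fold change between the primed groups was -0.44 (SE 0.06, adjusted p = 0.000435). By TPM, *Sh2b3* was at 19.6 in Tu-primed, 25.5 in Spl-primed and 14.9 in parental cells. *Afap1l2*, a SRC-binding adaptor, was lower (log2 fold change -0.73, SE 0.10, adjusted p = 0.000329). By CPM it lay on either side of the parental level, with -0.34 in Tu-primed and 0.40 in Spl-primed cells. Its TPM means were 3.97 in Tu-primed, 6.37 in Spl-primed and 3.64 in parental cells. *Nrarp*, a target and inhibitor of Notch signalling, was at 21.5 ± 1.95 CPM against 32.2 ± 3.71 CPM (log2 fold change -0.58, SE 0.08, adjusted p = 0.0006). The organic anion transporter *Slco4a1* (-0.69), the water channel *Aqp1* (-0.49), the heparan sulfate sulfotransferase *Hs6st1* (-0.40) and the actin regulator *Mtss1l* (-0.44) completed the leading lower genes with *Nqo1*, with adjusted p-values between 0.000478 and 0.000758. No setting tried removed the call of any of these 12 genes.

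**Figure D4:**
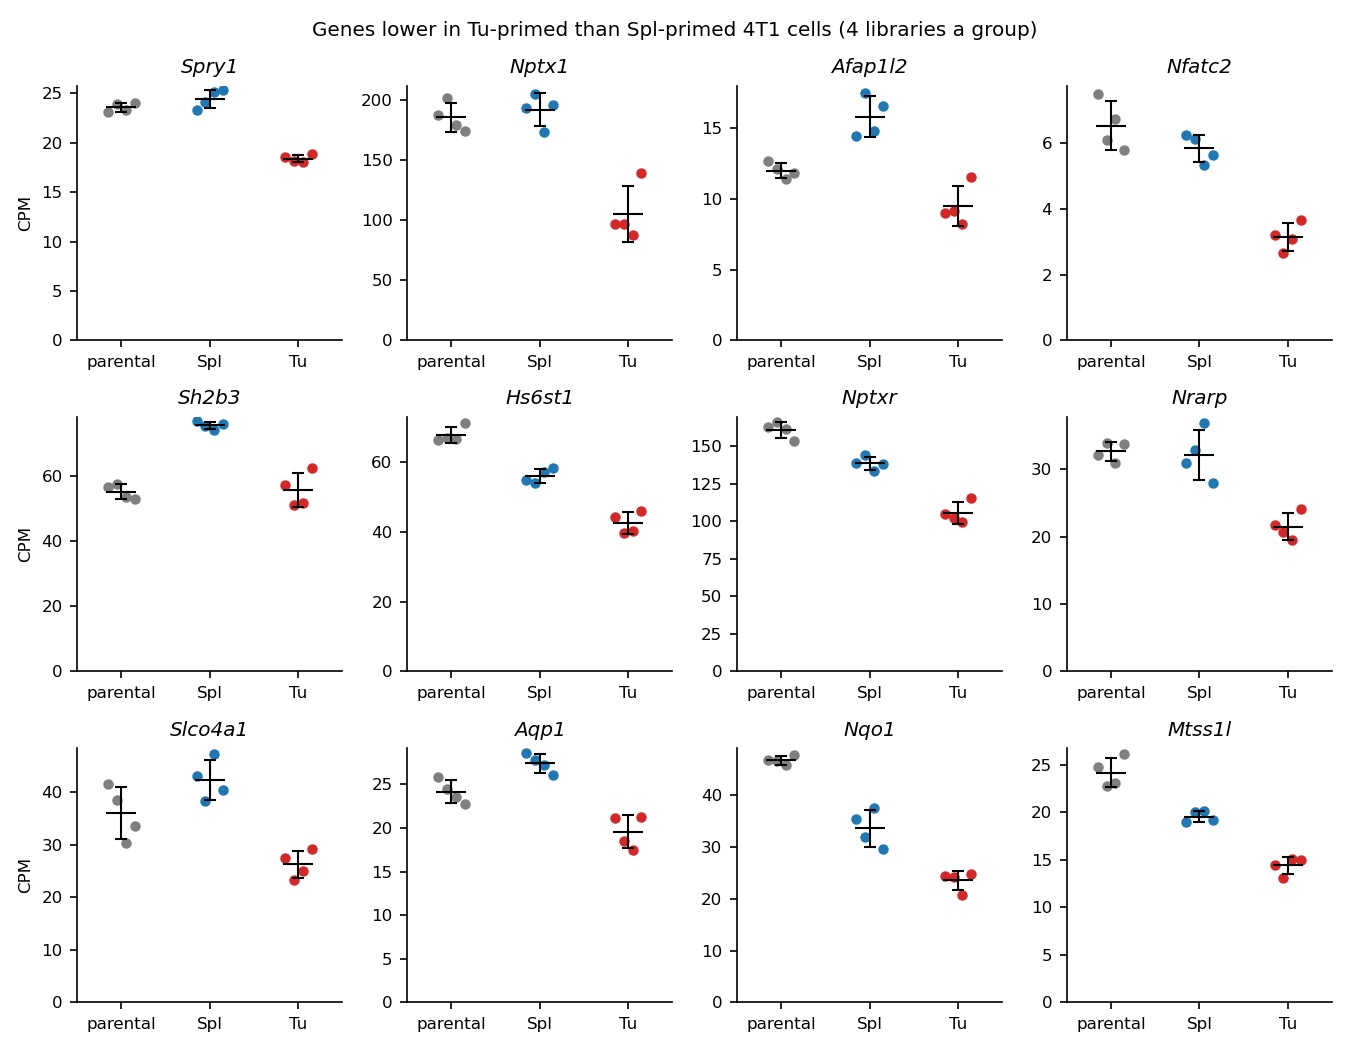
CPM per library for the 12 genes outside the interferon list with the smallest p among those lower in Tu-primed cells and without overlap between the primed groups, drawn as points with the mean ± SD of 4 libraries for parental, Spl-primed (Spl) and Tu-primed (Tu) cells. Tu-primed library 4 is the highest of its group in 11 of the 12 panels, *Mtss1l* being the exception.

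Some of the largest folds outside the interferon list came from scarce transcripts. *Adgra1*, an adhesion-type receptor gene, was at 0.355, 0.427, 0.385 and 0.694 CPM in Tu-primed libraries 1 to 4 and 1.35, 1.42, 1.27 and 1.7 CPM in Spl-primed libraries 1 to 4 (log2 fold change -1.61, SE 0.24, adjusted p = 0.00077), and the parental mean was 1.64 ± 0.261 CPM. *Sectm1b*, a secreted and transmembrane protein gene, was at 0.461, 0.583, 0.944 and 0.451 CPM in Tu-primed libraries 1 to 4 and 0.0628, 0.109, 0.0726 and 0.0348 CPM in Spl-primed libraries 1 to 4 (log2 fold change 3.06, SE 0.46, adjusted p = 0.000811), and *Hsh2d*, an adaptor of immune cells, at 1.03, 0.583, 0.559 and 0.625 CPM in Tu-primed libraries 1 to 4 and 0.126, 0.109, 0 and 0.0348 CPM in Spl-primed libraries 1 to 4 (log2 fold change 3.26, SE 0.55, adjusted p = 0.00193). The detoxifying *Gsta1* was at 3.09 ± 0.572 CPM against 6.08 ± 2.5 CPM (log2 fold change -0.98, SE 0.24, adjusted p = 0.0227) with 12.7 ± 1.67 CPM in parental cells, and its call was lost in 6 alternatives. *Ripply1* (-1.22), *Bpifb4* (-1.01), *Myh7b* (-1.05), *Noxa1* (-1.01) and *Gm3448* (-0.95) were all below 4 CPM in every primed library, and the calls of *Myh7b* and *Gm3448* were lost in 10 and 8 of 22 alternatives and that of *Noxa1* in 18 of 21. With length offsets the log2 fold change of *Myh7b* was -0.33.

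For 3 further features the counts are uncertain. *Gm18853*, an unprocessed pseudogene, was at 1.95, 3.22, 1.15 and 0.59 CPM in Tu-primed libraries 1 to 4 and 0, 0, 0.109 and 0 CPM in Spl-primed libraries 1 to 4 and at 0.614 ± 0.574 CPM in parental cells. *Gm9795*, a processed pseudogene, was at 0 in the 4 Tu-primed libraries and at 0.722, 0.363, 0.799 and 0.557 CPM in the Spl-primed ones, which is at least 22.6-fold lower when a total of 3 counts is allowed over the Tu-primed group. *Asdurf*, which shares its place on chromosome 1 with *Asnsd1*, was at 0 in the 4 Spl-primed libraries and at 0.603, 0.544, 0.419 and 0.278 CPM in the Tu-primed ones, at least 17.8-fold higher on the same rule, and at 0.53 ± 0.471 CPM in parental cells. Its call was lost without Tu-primed library 1 and without Tu-primed library 2. *Asnsd1* itself had a log2 fold change of -0.08 (adjusted p = 0.603). Reads that fit a pseudogene and its parent, or both overlapping genes, were divided by the authors' quantification.

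Respiration and ribosomal protein genes had medians below 0 with few calls, where 2.96% of all genes tested were lower. Among 78 nuclear genes of oxidative phosphorylation none was called by edgeR's quasi-likelihood test, where 11 were lower at an unadjusted p under 0.05. DESeq2 called 1 lower, as did edgeR without Tu-primed library 4, Spl-primed library 4, parental library 2 or parental library 4. In all, 70 of the 78 had a fold change below 0, and the median was -0.11 on the log2 scale. The 13 mitochondrially encoded genes had no call, a median of -0.26 and all 13 below 0, with 2 called lower without parental library 4 and 5 with the 8 primed libraries alone. Of 78 mitochondrial ribosomal protein genes 2 were lower (-0.12 for the median; 1 without Spl-primed library 3 or Tu-primed libraries 1, 2 or 3, 4 without Tu-primed library 4 and 5 without Spl-primed library 4), and of 80 cytosolic ones none (-0.09). Against parental cells these lists were lower in both primed groups, with medians for the nuclear oxidative phosphorylation genes of -0.50 in Tu-primed and -0.36 in Spl-primed cells and for the mitochondrially encoded genes of -1.34 and -1.07. Spl-primed library 3 had the highest Spl-primed score for all 4 lists, between 0.19 and 0.23 above its group's mean, and the part of that library in these medians was not tested.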

How the data were processed

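RNA-Seq of 12 libraries of 4T1 cells was analysed in 3 groups of 4, grouped by the sample labels. The authors deposited 1 table a library, with an estimated count for every Ensembl transcript that is not normalized, an effective length and a TPM value corrected for length and depth. The submitters' processing notes name Salmon 1.4.0, Trimmomatic 0.39 and FastQC, without their order. The annotation release used for the deposited tables is not given in the sources used here. A table of normalized values per gene was also deposited and was not used here.

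Estimated counts were summed to genes with GENCODE M21 (GRCm38) and rounded. Libraries held 24566183 to 31637755 reads, 0.333% to 0.434% of them on transcripts outside that annotation. The 4 libraries of a group give the error of a value, and 0 counts allow up to 3, or 0.126 CPM, in counting error only. In R 4.3.3, edgeR 4.0.16 kept 12550 genes (filterByExpr), scaled them by TMM (factors 0.88 to 1.05) and fitted all 12 libraries with the quasi-likelihood test, without a replicate term. Each comparison was adjusted by Benjamini-Hochberg over all genes tested, with a threshold of 0.05. CPM uses TMM library sizes, and log2 CPM for scores a prior count of 2. The test was tried on simulated counts. DESeq2 1.42.0 and limma 3.58.1 were alternatives, as were other normalizations and filters, a replicate block and leaving out each library. Tables were joined in Python 3.11.15 with pandas 2.3.3 and drawn with matplotlib 3.10.9.

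Genes outside the interferon list were named if called, without overlap of the primed libraries, and among the 12 with the smallest p or the 8 with the largest fold in each direction, if the study names them for these libraries, or if they were among the 4 called members with the smallest p in each direction of a list. Neighbouring genes and some further members of lists were named after their values were seen. The comparison, the lists and the rule were chosen with earlier results of these data known. Some single genes are not reported here. Some written symbols, such as *Ifi30* and *H2-Q8*, did not match the annotation and were not analysed here.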

Additional observations from a re-analysis of the deposited data

Results flagged for a closer look

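Among 154 groups of 4 libraries, those of the leading genes and of the list scores, 9 had 1 library far from the others by Dixon's test, which is 5.84% where chance flags about 1 in 20. In Tu-primed library 4 *Ackr3* was at 27.5 CPM against 36.7 to 38 CPM in the other 3, and the score of the stem cell genes was 0.18 against 0.36 to 0.40. Tu-primed library 1 had 1.03 CPM of *Hsh2d* against 0.559 to 0.625 CPM, and Tu-primed library 3 had 20.8 CPM of *Nqo1* against 24.3 to 24.8 CPM. In Spl-primed library 3 the scores of the cholesterol and fatty acid list and of the TGF-beta and BMP list were -0.073 and -0.062, against 0.02 to 0.03 and 0.01 to 0.03 in the other libraries of its group, and *Gm18853* was at 0.109 CPM where the other 3 were at 0. Spl-primed library 4 had 1.25 CPM of *Ly6a* against 1.31 to 1.32 CPM, and Spl-primed library 1 had 0.471 CPM of *Noxa1* against 0.617 to 0.626 CPM. The cause of these differences was not tested.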

How the results depend on the processing

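Of 205 called genes followed through 20 to 22 refits each, according to whether a filter kept them, none changed direction and 111 kept their call in all of theirs. DESeq2 with length offsets dropped the call of 39 of the 205, and leaving out Tu-primed library 3 dropped 82. Of all 371 lower genes outside the interferon list, 222 kept their call with length offsets, 191 without Spl-primed library 3 and 118 without Tu-primed library 3. Of the 451 higher genes, 350, 400 and 285 kept theirs in these 3 refits. Outside the interferon list the higher count was 371 to 661 and the lower count 255 to 508 under DESeq2, DESeq2 with length offsets, limma-voom, RLE or upper-quartile normalization, another filter on low counts, the 8 libraries alone or the replicate block. At an adjusted p under 0.01, 349 genes were higher and 96 lower, of which 246 and 96 lay outside the list. Leaving out each library in turn gave 402 to 662 higher and 118 to 531 lower genes, 287 to 521 and 118 to 529 outside the list, and 6660 to 7964 and 5189 to 6594 genes for the 2 comparisons with parental cells. The replicate block gave 489 higher and 256 lower genes, 371 and 255 of them outside the list, and 7191 and 5776 genes against parental cells. Same-numbered primed libraries had correlations between -0.164 and 0.0162 and 1 of 4 matched its own number best. Against parental libraries they were between -0.155 and 0.0718 for Spl-primed, with 1 of 4, and between 0.0838 and 0.148 for Tu-primed, with 2 of 4. No pair of groups had all 4 correlations above 0.1, so pairing was not used. In the other lists described as having no gene called in a direction, DESeq2, limma-voom and the refits without 1 library called none in that direction, and at most 2 genes of a list had an unadjusted p under 0.05, apart from the cytosolic ribosomal proteins with 5 lower and 1 called by DESeq2 with length offsets. Genes not called and near 0 changed sign: *Il6st* to -0.064 with length offsets and -0.063 without Tu-primed 4 and Spl-primed 3 together, *Podxl* to 0.0028 with length offsets, *Twist1* to 0.0040 without those 2 libraries, and *Zeb1* to 1.30 with length offsets, 0.020 under limma-voom and 0.00062 under the block. Leaving out single libraries, *Il6ra* ranged from -0.021 to 0.067, *Il6st* from -0.070 to 0.081 and *Zeb1* from -0.13 to 0.19. Depth limits scarce genes, since transcripts below about 1 CPM rest on few counts, and no test was made of how the estimated counts were divided between similar genes.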

Other observations

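The 3 lists of this section were written after the values had been seen, and so their counts describe these libraries and test nothing. Of 125 tested factors that build ribosomes in the nucleolus, 31 were lower in Tu-primed than in Spl-primed cells and none was higher, where 2.96% of all genes tested were lower, and the median log2 fold change was -0.16. The folds were small. *Nop2*, an rRNA methyltransferase, was at 89.2 ± 4.16 CPM against 109 ± 7.34 CPM with 137 ± 3.28 CPM in parental cells (log2 fold change -0.29, SE 0.06, adjusted p = 0.00547), *Wdr12*, a factor of the large subunit, at 47.1 ± 1.73 CPM against 59.9 ± 6.21 CPM (log2 fold change -0.35, SE 0.06, adjusted p = 0.00411), and *Pwp2*, a factor of the small subunit, at 52.5 ± 1.52 CPM against 61.6 ± 2.98 CPM (log2 fold change -0.23, SE 0.05, adjusted p = 0.00751). Against parental cells, 95 of the 125 were lower in Tu-primed and 73 in Spl-primed cells. The count of 31 depended on single libraries, being 5 without Tu-primed library 3, 7 without Tu-primed library 2, 11 without Spl-primed library 1 or Tu-primed library 1, 13 without Spl-primed library 3, 14 without Spl-primed library 2, 19 without parental library 1 and 20 without parental library 3.

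Genes of nucleotide and one-carbon synthesis gave 9 lower and no higher gene among 40 tested (2.96% and 4.66% over all genes tested), with a median of -0.16. They included *Mthfd1*, a folate enzyme (log2 fold change -0.35, SE 0.06, adjusted p = 0.00175), *Gart*, of purine synthesis (log2 fold change -0.30, SE 0.06, adjusted p = 0.00701), and *Dctd*, which makes dUMP (log2 fold change -0.43, SE 0.08, adjusted p = 0.00289). The count was 3 without Tu-primed libraries 2 or 3, 4 without Spl-primed library 1 and 5 without Tu-primed library 1. Cytokine receptor chains gave 10 higher genes among 41 tested and none lower (median 0.09), a count between 8 and 11 without any 1 library, while DESeq2 and 3 of these refits called 1 lower. Beside *Osmr* these included *Il13ra1*, at 117 ± 19.3 CPM against 52.4 ± 3.99 CPM (log2 fold change 1.15, SE 0.12, adjusted p = 3.74e-05), and *Il4ra*, at 91.3 ± 8.08 CPM against 64.7 ± 0.496 CPM (log2 fold change 0.50, SE 0.06, adjusted p = 0.000133), the 2 chains of the receptor for IL-4 and IL-13 on non-hematopoietic cells, and the tumor necrosis factor receptors *Tnfrsf1a* (log2 fold change 0.36, adjusted p = 0.00461, adjusted p = 0.0687 by DESeq2 with length offsets) and *Tnfrsf1b* (log2 fold change 0.30, SE 0.05, adjusted p = 0.0021). In Spl-primed cells *Il4ra* was below the parental level (log2 fold change -0.30, adjusted p = 0.000934) and in Tu-primed cells above it (log2 fold change 0.19, adjusted p = 0.0128). *Lepr*, the leptin receptor, was at 6.3 ± 1.67 CPM against 3.5 ± 0.305 CPM (log2 fold change 0.85, SE 0.19, adjusted p = 0.0143), a call lost in 2 of 22 alternatives.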
